A study of Schizosaccharomyces pombe with 4 samples.

Results

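The genes described here are eng1, agn1, adg1, adg2, adg3 and mid2 of fission yeast, Schizosaccharomyces pombe, which act at the division septum and in the parting of daughter cells. They are 6 of the 5113 annotated protein-coding genes, and 138 of the 42548 array probes used lay in them or within 2 kb of them. They were chosen by their known role in separation together with the Rad52 peak seen at eng1 on these arrays, that is, with their own log2 ChIP over input in view. Their levels and strain differences are therefore given as a description, without a test. The value throughout is log2 of Rad52 chromatin immunoprecipitation (ChIP) signal over input DNA, Rad52 being the protein that loads the strand-exchange recombinase at broken or stalled replication forks, with each array centred on the median of its probes, so that 0 is the array median. Gene values are means over the probes in the gene.

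There were 4 arrays, of which 2 held cdc25-22 rif1Δ samples and 2 held samples of the cdc25-22 rif1Δ rad3Δ strain. Both strains carried cdc25-22, a heat-sensitive allele that blocks entry into mitosis, and both lacked Rif1, a protein that restrains replication origins. Both were held for 4 h at 36.5 °C, released at 25 °C and treated with 6 mM hydroxyurea, which depletes nucleotide pools and slows replication. Only the second strain also lacked Rad3, the ATR-type kinase at the head of the replication and DNA damage checkpoints, and the comparison asks where Rad52 lies with and without it. No rif1+ array, no untreated array and no ChIP from cells without Rad52 was used here, so Rad52 binding cannot be told apart from signal that such a control would also show.

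Fission yeast divides by building a septum of a primary layer between secondary layers, and daughter cells part when glucanases dissolve the primary septum and the wall around it. The glucanases are made in a burst at the end of mitosis, by a transcription cascade that the forkhead factor Sep1 starts. Eng1 is the endo-β-glucanase that digests the primary septum, and Agn1 is the endo-α-glucanase that digests the surrounding wall. Mid2 is an anillin-like protein that holds the septin ring, which with the exocyst directs both enzymes to the septum. The adg genes are expressed in the same burst, and adg3 encodes a β-glucosidase-like wall protein. These roles are background and were not measured here, since the arrays held no RNA comparison used here.

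The forkhead recognition sequence GTAAACA, the kind of site that Sep1 and its relatives bind, was searched on both strands upstream of each annotated gene start, in the S. pombe reference ASM294v3 from RefSeq. Within 300 bases of the start it stood in eng1 and adg3, 2 of the 6 genes, against 871 of all 5113 promoters, or 17.0%. Within 1000 bases it stood in 3 of the 6, adg1 being the third, against 1890 promoters, or 37.0%. A match is a description of the letters and not of binding. The upstream stretches of eng1 and adg3 are printed because these genes mark the ends of the range below, the tallest Rad52 signal of the 6 and the lowest. They are read 5′ to 3′ toward the gene, with the site in capitals, and in both it runs on the opposite strand, as the reverse complement.
The eng1 site lies 198 bases before the start, in chrI:998332-998631 on the plus strand.
eng1: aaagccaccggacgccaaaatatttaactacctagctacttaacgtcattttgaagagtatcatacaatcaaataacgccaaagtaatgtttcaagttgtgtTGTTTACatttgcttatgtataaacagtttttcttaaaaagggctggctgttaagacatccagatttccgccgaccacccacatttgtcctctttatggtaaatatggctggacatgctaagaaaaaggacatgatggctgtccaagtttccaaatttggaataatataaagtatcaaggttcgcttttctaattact
The adg3 site lies 128 bases before the start, in chrIII:1952200-1952499 on the minus strand.
adg3: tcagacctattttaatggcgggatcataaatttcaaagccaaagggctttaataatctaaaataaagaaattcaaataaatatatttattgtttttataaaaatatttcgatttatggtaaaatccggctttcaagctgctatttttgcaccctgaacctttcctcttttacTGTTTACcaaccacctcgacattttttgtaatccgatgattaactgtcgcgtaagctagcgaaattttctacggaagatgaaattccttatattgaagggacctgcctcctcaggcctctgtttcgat

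Before the values, 3 features of the arrays bear on them. Probes in rif1 lay at 0.867% to 3.48% of the channel median on all arrays, and probes in rad3 lay at 63.2% to 79.7% on the rif1Δ arrays against 0.972% to 6.11% on the rif1Δ rad3Δ arrays, in either channel. The labels give the input of rif1Δ rad3Δ as cdc25-22 without deletions, which the rif1 and rad3 probes contradict. The replicate 1 arrays of the strains shared a slide, and the other 2 arrays had a slide each. Replicate 2 of rif1Δ rad3Δ was read with a ChIP setting of the scanner software and the rest with a CGH setting, and its spread between neighbouring probes was 0.452 against 0.311 to 0.322. Gene values correlated across genes at 0.689 between the rif1Δ arrays, 0.856 between the rif1Δ rad3Δ arrays and 0.293 to 0.419 between strains. Nothing in the labels says that replicates were separate cultures, so the p-values below reflect array-to-array spread only, and that spread may be technical.

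In rif1Δ cells, the Rad52 signal was high over the septum glucanase genes eng1 and agn1, lower but raised over adg1, adg2 and mid2, and lowest, modestly above the array median, over adg3. In rif1Δ rad3Δ cells it was lower over all 6 genes, and none of the 6 had overlapping arrays between the strains. Of all genes tested, 37.2% likewise stood lower without overlap. The strains differed by 1.47-fold at mid2 and by up to 3.77-fold at eng1. Over the 6 genes the median level was 1.21 in rif1Δ and 0.18 in rif1Δ rad3Δ, and the median difference was -1.22. Over all 4862 genes tested these medians were -0.016, -0.018 and -0.036.

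**Figure D1:**
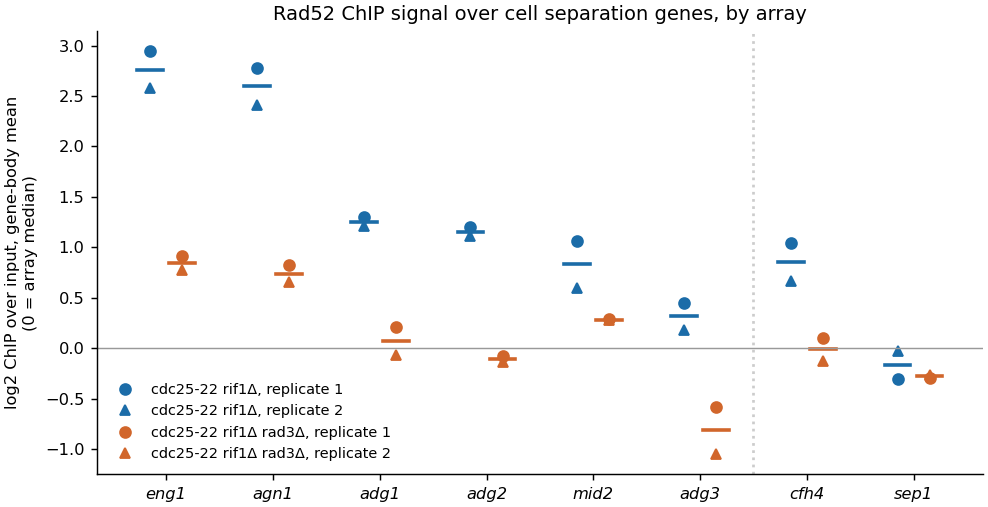
Gene-body mean of log2 ChIP over input for the 6 cell separation genes and, right of the dotted line, the wall gene cfh4 and the transcription factor gene sep1. Points are single arrays, bars are means of the 2 arrays of a strain, and 0 is the array median; over eng1 the rif1Δ arrays stand at 2.94 and 2.58 and the rif1Δ rad3Δ arrays at 0.92 and 0.77.

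The endoglucanase gene eng1 (SPAC821.09) lies on chromosome I from 998632 to 1002361 on the plus strand and held 12 probes. Its gene value was 2.94 and 2.58 on the rif1Δ arrays and 0.92 and 0.77 on the rif1Δ rad3Δ arrays. Both rif1Δ arrays stood above both arrays of the double mutant by at least 1.66. The means were 2.76 ± 0.26 and 0.84 ± 0.10 (SD, n = 2 each), or 6.77-fold and 1.79-fold over the array median, and the difference was -1.92 ± 0.15 (SE). Among the 4862 genes eng1 ranked 2 from the top in rif1Δ and 127 in rif1Δ rad3Δ, and its difference was the second lowest.

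The peak at eng1 covered the gene and both flanks. The highest probe, 176 bp inside the gene, read 3.55 and 2.88 on the rif1Δ arrays, a mean of 9.27-fold. A run of 23 neighbouring probes was raised at least 2-fold on both rif1Δ arrays, from 1348 bp before the start to 4826 bp after it, a span of 6173 bp between probe centres. In the double mutant such a run was 4 probes long and covered 734 bp around the start, from 264 bp before it to 470 bp after it. Within 2 kb of the gene, the probe with the highest double mutant mean lay past the end of eng1, 4034 bp from its start, but its arrays read 0.89 and 2.45. In rif1Δ the level was 1.49 between 2 and 1 kb upstream, 2.34 in the last kb before the start and 2.86 in the gene up to its midpoint. It was 2.69 past the midpoint, 1.99 in the first kb downstream and 0.73 in the next. In rif1Δ rad3Δ the same stretches stood at 0.32, 1.03, 1.14, 0.63, 1.02 and -0.33, so the strains differed most past the midpoint of the gene, by -2.06.

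The α-glucanase gene agn1 (SPAC14C4.09) lies on chromosome I from 5244037 to 5245966 on the plus strand in the reference, and on the array 6130 bp to the left of that. Its 7 probes gave 2.78 and 2.41 in rif1Δ and 0.82 and 0.66 in rif1Δ rad3Δ. The strains stood apart by at least 1.59, and agn1 was the gene nearest to eng1 in all 4 values together among the 6. The means were 2.60 ± 0.26 and 0.74 ± 0.12 (SD, n = 2 each), with a difference of -1.86 ± 0.16 (SE), or 3.62-fold. It ranked 4 in rif1Δ and 234 in rif1Δ rad3Δ.

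Like eng1, agn1 peaked shortly after its start, at 271 bp, with 3.22 and 2.74 on the rif1Δ arrays, or 7.88-fold on average. The run of probes raised 2-fold on both rif1Δ arrays was 15 long and spanned 4398 bp, from 1540 bp before the start to 2859 bp after it. In rif1Δ rad3Δ no probe of the gene reached 2-fold on both arrays. From upstream to downstream the rif1Δ level was 1.25, 2.20, 2.77, 2.37, 1.75 and 1.14 in the same 6 stretches as above, and the double mutant level 0.17, 0.93, 0.82, 0.63, -0.07 and -0.19. The strains thus differed most up to the midpoint of agn1, by -1.94, and next downstream of its end, by -1.82.

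**Figure D2:**
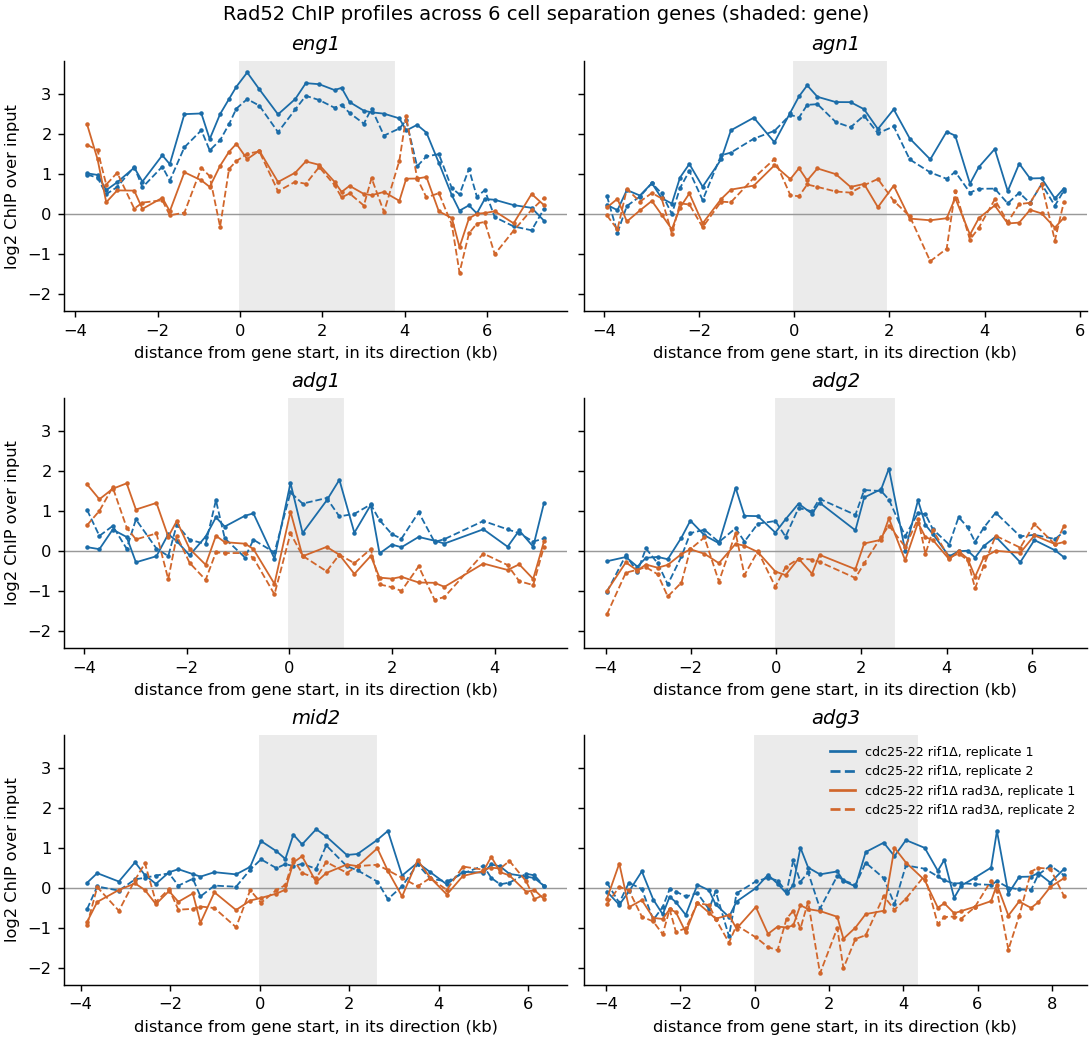
Log2 ChIP over input of single probes against the distance from the annotated start of each gene in kb, in the direction of transcription, with the gene shaded. Each line is one array; the rif1Δ lines rise to 3.55 over eng1 and 3.22 over agn1, while over adg3 the lines of the double mutant lie below 0 for most of the gene.

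The separation gene adg1 (SPAPJ760.03C; chromosome I, 5265435 to 5266485 in the reference, minus strand) held 4 probes, of which 2 were dim, that is, not well above background on at least 1 array. It read 1.30 and 1.21 in rif1Δ and 0.21 and -0.072 in rif1Δ rad3Δ. Both double mutant arrays thus stood close to the array median, and both rif1Δ arrays more than 2-fold above it. The rif1Δ level was below 2-fold with normexp, at 0.77, and with gene body plus 2 kb, at 0.61. The means were 1.25 ± 0.063 and 0.071 ± 0.20 (SD, n = 2 each), a difference of -1.18 ± 0.14 (SE), or 2.27-fold. From median spot signals with normexp background correction the difference was -0.68, the smallest of its 16 alternative values.

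The related gene adg2 (SPAC19G12.16C; chromosome I, 4078389 to 4081156 in the reference, minus strand) read 1.20 and 1.12 in rif1Δ and -0.080 and -0.14 in rif1Δ rad3Δ over 8 probes. Here the strain means were 1.16 ± 0.056 and -0.11 ± 0.040 (SD, n = 2 each), and the difference was -1.27 ± 0.11 (SE), or 2.40-fold. The signal of adg2 was thus at the array median in the double mutant. Unlike eng1 and agn1, it was highest near its end, at a probe 2648 bp into the 2768 bp gene, with 2.06 and 1.29 in rif1Δ. That probe ended a run of 3 probes raised 2-fold on both rif1Δ arrays, 580 bp long. The first kb downstream of adg2 was at 0.64 in rif1Δ and 0.30 in rif1Δ rad3Δ, the smallest of the strain gaps around it.

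The β-glucosidase-like gene adg3 (SPCC18.01C; chromosome III, 1947837 to 1952199, minus strand) differed from the others in level. Its 15 probes, of which 3 were dim on at least 1 array, gave 0.45 and 0.18 in rif1Δ and -0.58 and -1.05 in rif1Δ rad3Δ. So adg3 was modestly above the array median in rif1Δ and below it in the double mutant. The means were 0.32 ± 0.19 and -0.81 ± 0.33 (SD, n = 2 each), and the difference was -1.13 ± 0.18 (SE), close in size to those of adg1 and adg2. In rif1Δ adg3 ranked 434 of 4862, with 91.1% of genes lower, and in the double mutant it ranked 4775, with 1.79% lower. No probe of adg3 reached 2-fold on both rif1Δ arrays. Its last kb upstream stood at -0.61 in rif1Δ and -1.01 in rif1Δ rad3Δ, below the gene itself in both strains.

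The anillin-like septin organiser gene mid2 (SPAPYUG7.03C; chromosome I, 4748861 to 4751453 in the reference, minus strand) held 9 probes. It read 1.07 and 0.60 in rif1Δ and 0.29 and 0.28 in rif1Δ rad3Δ. The rif1Δ arrays differed from each other more than the lower of them differed from the double mutant. The means were 0.83 ± 0.33 and 0.28 ± 0.0062 (SD, n = 2 each), and the difference of -0.55 ± 0.17 (SE), or 1.47-fold, was the smallest of the 6, with 7.34% of all genes lower still. Within the shared slide it was -0.78, and between the replicate 2 arrays -0.32. Without replicate 1 of rif1Δ it was likewise -0.32. Along mid2 the gap narrowed from -0.67 before the midpoint to -0.32 after it and -0.11 in the first kb downstream, and it was -0.82 in the last kb upstream, inside rpb9.

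For the other 5 genes, the difference within the shared slide and that between the replicate 2 arrays were both negative. They were -2.03 and -1.80 at eng1, -1.96 and -1.76 at agn1, and -1.08 and -1.28 at adg1. At adg2 they were -1.28 and -1.25, and at adg3 -1.03 and -1.23. The order within each replicate pair kept eng1 first and agn1 second.

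In the fit across all 4862 genes (limma, adjusted p below 0.05), 5 of the 6 genes were called above the array median in rif1Δ, all but adg3, where 5.31% of all genes were. Without either rif1Δ rad3Δ array all 6 were called, and without replicate 1 of rif1Δ 4 were. In rif1Δ rad3Δ, eng1 and agn1 were called above it, where 24.8% of genes were, and adg3 was called below it, where 28.6% were. None was called below the median in rif1Δ, where 1.87% of genes were. Between the strains 5 of 6 were called lower in rif1Δ rad3Δ, all but mid2, against 12.3% of genes, and 0 of 6 higher, against 10.8%. At an unadjusted p below 0.05, 6 of 6 were lower and 0 higher, against 22.2% and 18.5% of genes. Groups that did not overlap and stood lower in the double mutant were seen in 6 of 6 genes and in 37.2% of all genes. Since the genes were chosen with this contrast known, nothing is read from these counts. The split of all genes, 524 higher and 597 lower, was 256 and 463 with normexp and 513 and 385 with the A+T trend removed.

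**Figure D3:**
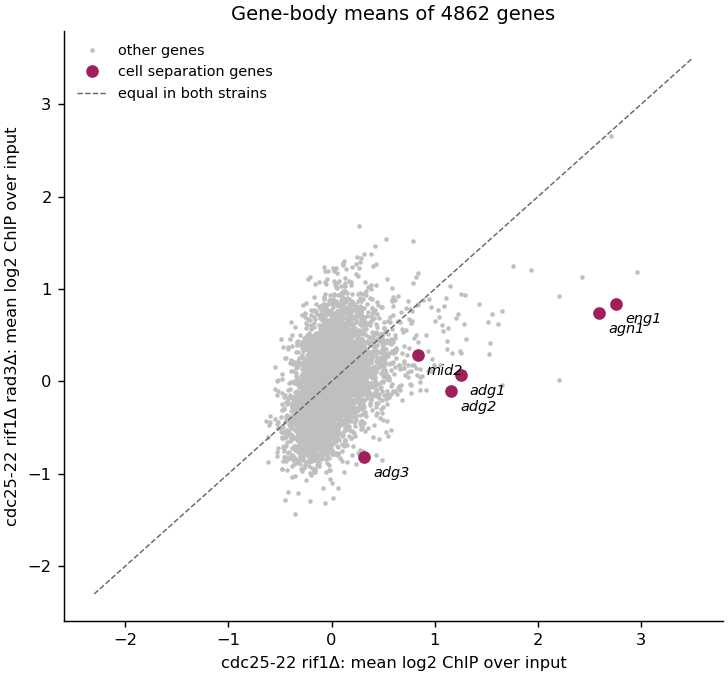
Mean log2 ChIP over input in rif1Δ rad3Δ against that in rif1Δ for 4862 genes, each point the mean of 2 arrays, with the dashed line where both strains are equal. The 6 genes lie below the line, eng1 and agn1 far to the right at 2.76 and 2.60, and adg3 near the lower edge at -0.81.

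At the level of single probes, 49 of the 55 probes in the 6 genes read lower on both rif1Δ rad3Δ arrays than on both rif1Δ arrays. These were all 12 of eng1, all 7 of agn1, all 4 of adg1, all 8 of adg2, 13 of 15 in adg3 and 5 of 9 in mid2. With the flanks included the count was 118 of 138, and over all 42548 probes 27.8% did so. In rif1Δ, 27 of the 55 probes were raised 2-fold on both arrays, against 0.95% of all probes, 12 of them in eng1 and 7 in agn1. In rif1Δ rad3Δ only 3 probes were, all in eng1, against 2.74% of all probes.

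In the means over arrays, the strain difference lay mainly in the ChIP channel. In brightness relative to the array median of each channel, the ChIP signal of eng1 changed by -1.85 on the log2 scale and its input by 0.054. At agn1 the ChIP changed by -2.07 and the input by -0.23, and at adg3 by -1.22 and -0.095. At adg1 the ChIP changed by -0.93 and the input by 0.24, and at adg2 by -0.97 and 0.28, so there a part of the difference in log2 ChIP over input stood in the input channel. At mid2 the ChIP changed by -0.49 and the input by 0.056, but the replicates disagreed. Between the replicate 1 arrays the changes at mid2 were -0.82 in the ChIP and -0.043 in the input. Between the replicate 2 arrays they were -0.15 and 0.15, so there the input changed about as much as the ChIP. The transcription factor gene sep1, for comparison, changed by -0.028 in the ChIP and 0.072 in the input.

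**Figure D4:**
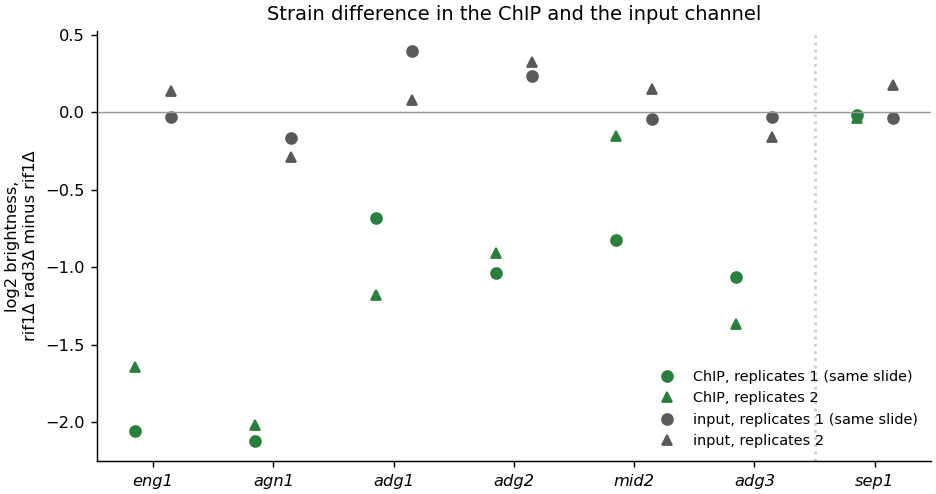
Log2 brightness in rif1Δ rad3Δ minus that in rif1Δ, for the ChIP channel (green) and the input channel (grey), with circles for the replicate 1 arrays on one slide and triangles for the replicate 2 arrays. ChIP points of the 6 genes lie below 0, down to -2.13 at agn1, and input points lie between -0.29 and 0.40.

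Neighbouring genes within 2 kb moved with the separation genes to different degrees. Beside eng1, the superoxide dismutase gene sod1 stood at 1.62 in rif1Δ and 0.62 in rif1Δ rad3Δ, and slp1, which encodes an activator of the anaphase-promoting complex, at 1.08 and 0.54. Beside agn1, mug5 upstream went from 2.20 to 0.93 and SPAC14C4.10C downstream from 1.65 to -0.041. Both of these genes overlap agn1, so they share some of its DNA. Farther out, SPAC14C4.07 went from 0.79 to 0.17 and the vacuolar chaperone gene vtc2 from 0.58 to -0.13. Each of these 6 neighbours of eng1 and agn1 was called lower in rif1Δ rad3Δ (limma), where 12.3% of all genes were. Single probes did not all follow. In slp1, the probe farthest from eng1 read 0.98 and 0.91 in rif1Δ against 1.379 and 1.605 in rif1Δ rad3Δ. The next probe outward, past the end of slp1, read 1.02 and 0.99 against 2.245 and 1.733. The slp1 probes nearest to eng1 read lower on both rif1Δ rad3Δ arrays. The flanks belong to the windows by which the separation genes were chosen, so calls of neighbours are a description too.

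Around the smaller peaks some neighbours were called lower and others were not, where limma called 12.3% of all genes lower. The neighbour abp1 of adg1 went from 0.46 to -0.62, a difference of -1.08, nearly that of adg1. At adg2, ted1 fell by 0.64 to -0.11, while the trehalose phosphatase gene tpp1 went from 0.41 to 0.048 without passing the test. At mid2, the RNA polymerase II subunit gene rpb9, which overlaps mid2, fell by 0.96 to -0.43, more than mid2 itself. The proline synthesis gene pro3 next to it fell by 0.61, and the TORC2 subunit gene sin1 on the other side went from 0.35 to 0.30 with overlapping arrays. At adg3, SPCC18.02 fell by 0.45 to -0.71, and the histidine kinase gene mak3 went from 0.25 to -0.13 without passing. Between agn1 and adg1, which lie 19468 bp apart, the 4 genes beyond 2 kb of both stood at 0.052 to 0.30 in rif1Δ, so the 2 peaks were separate.

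For each gene, the bin of 1 kb with its highest rif1Δ mean was taken as its best bin, and that same bin was ranked in rif1Δ rad3Δ. It need not be the highest bin of the gene there, so a lower rank in rif1Δ rad3Δ is partly built in. Among 12047 bins along the genome, the best bin of eng1, from 1000000 to 1000999 on chromosome I of the array, was the 4th highest in rif1Δ at 8.11-fold. It ranked 375 in rif1Δ rad3Δ. The best bin of agn1 ranked 7 at 6.80-fold and then 704. The best bin of adg2 ranked 51 at 2.91-fold, that of adg1 101 at 2.15-fold, that of mid2 191 at 1.77-fold and that of adg3 424 at 1.50-fold. The adg3 bin read 1.03 and 0.13 on the rif1Δ arrays, so its height rests mostly on replicate 1. The 6 genes thus spread over a wide range of heights, with only the glucanase genes among the tallest peaks.

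Outside the neighbourhood of the 6 genes, the genes most like eng1 over the 4 arrays were SPBPB7E8.01, SPCPB1C11.03, the exoglucanase gene exg1, the xanthine dioxygenase gene xan1 and the homocysteine synthase gene met17. Their Euclidean distances from eng1, over 4 log2 values, were 0.66, 1.11, 1.28, 1.52 and 1.55. The distance of agn1 was 0.27, and those of adg1, adg2, mid2 and adg3 were 2.40, 2.64, 2.84 and 4.18. By this measure agn1 was nearer to eng1 than any of those 5 genes was, and the remaining 4 separation genes were farther from it than all 5. On the arrays in the order used above, exg1 read 2.09, 1.78, 1.19 and 1.21, and xan1 read 1.997, 2.41, 0.20 and -0.16.

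The transcription factor genes given here, sep1, fkh2 and mbx1, stood near or below the array median in rif1Δ. The gene sep1 read -0.31 and -0.027 against -0.29 and -0.26, a difference of -0.11 ± 0.13 (SE) with a limma adjusted p of 0.569. Of 3 transcription factor genes given here, 0 were called between the strains in limma, where 10.8% of all genes were called higher and 12.3% lower. At an unadjusted p below 0.05 there was 1, the MADS-box gene mbx1 (-0.41, limma adjusted p = 0.0924). Of all genes, 18.5% were higher and 22.2% lower at that p. The forkhead gene fkh2 had a limma adjusted p of 0.267. The gene mcm1 of this list was not analysed here. The median difference of the 3 was -0.11.

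All pathway lists were chosen with earlier results of these data known, so the calls of this and the other lists are a description. Among 10 other wall-degrading and wall-remodelling genes, 3 fell in rif1Δ rad3Δ and 0 rose in limma, where 12.3% of all genes were called lower and 10.8% higher. At an unadjusted p below 0.05, 5 were lower and 0 higher, against 22.2% and 18.5% of all genes. The β-glucanase gene exg1 fell from 1.94 ± 0.22 to 1.20 ± 0.017 (SD, n = 2 each), with a difference of -0.73 ± 0.14 (SE, limma adjusted p = 0.0179). The gene cfh4, a homologue of chitin synthase regulators, fell from 0.85 ± 0.26 to -0.012 ± 0.17 (SD, n = 2 each), by -0.86 ± 0.16 (SE, limma adjusted p = 0.0176). The α-glucanase gene agn2, which acts in spore release, fell from -0.070 to -0.58 (limma adjusted p = 0.0435), from near the median to below it. The call of agn2 was lost in 8 of 15 alternative fits, and with normexp its difference was -0.21. The glucanosyltransferase genes gas1, gas2 and gas5 were raised in rif1Δ, at 0.50, 0.46 and 0.48, and stood at 0.45, 0.44 and 0.44 in rif1Δ rad3Δ. In this list 5 of 10 genes were called above the array median in rif1Δ, against 5.31% of all genes. The median difference of this list was -0.26, against -0.036 over all genes.

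Of 7 genes of septins and their partners, 3 rose and 0 fell in limma, also at an unadjusted p below 0.05. Over all genes 10.8% were called higher and 12.3% lower, and 18.5% and 22.2% at an unadjusted p. The septin gene spn4 rose from 0.019 to 0.68 (0.66 ± 0.12 SE, limma adjusted p = 0.0165), and gef3, which encodes a guanine nucleotide exchange factor that binds septins, from 0.054 to 0.84 (0.79 ± 0.17 SE, limma adjusted p = 0.0235). The gene of the GTPase Rho4, which acts in septum degradation, rose from -0.057 to 0.59 (0.65 ± 0.13 SE, limma adjusted p = 0.0201). All 3 thus went from the array median to above it. The difference between this list and the 6 genes was not tested.

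Of 8 exocyst genes, sec5 and sec15 fell, by 0.53 ± 0.13 and 0.49 ± 0.12 (SE, limma adjusted p = 0.0327 and 0.0296), and 0 rose. Of 11 genes of the septation initiation network, which times septum assembly, the scaffold gene sid4 rose by 0.46 ± 0.11 and the kinase gene sid2 fell by 0.55 ± 0.14 (SE, limma adjusted p = 0.0301 and 0.0342). In the morphogenesis Orb6 network, which acts in cell polarity and separation, 1 of 6 genes fell, mor2, by 0.56 ± 0.14 (SE, limma adjusted p = 0.0309). Of 9 septum synthase genes and their regulators and of 10 contractile ring genes, 0 were called in limma, with lowest adjusted p-values of 0.0824 at bgs3 and 0.0818 at myo2. At an unadjusted p below 0.05, 1 synthase gene was higher, and 2 ring genes were higher and 2 lower. Higher and lower at that p were 0 and 3 exocyst genes, 2 and 3 of the septation initiation network, and 1 and 1 of the Orb6 network. The shares of all genes were 18.5% higher and 22.2% lower. At the adjusted p, 4 of all 64 pathway genes given here were higher and 7 lower, against 10.8% and 12.3% of all genes. In rif1Δ, 6 of the 64 were called above the array median, 5 of them wall genes, against 5.31% of all genes. Of the 15 alternative fits, 8 lost the call of sid2, 7 that of sid4 and 6 each those of sec5, sec15 and mor2, whose difference was -0.20 with normexp. Calls of pathway genes were also lost when single arrays of either strain were left out, which leaves 1 array in that strain. The difference of exg1 was -0.58 without replicate 1 of rif1Δ and -0.89 without replicate 2.

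**Figure D5:**
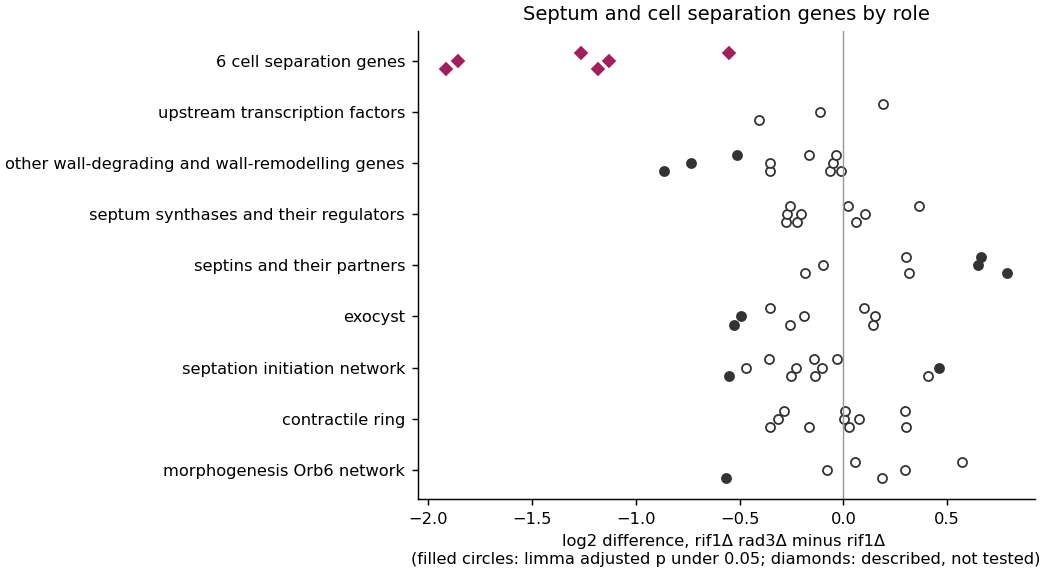
Log2 difference between rif1Δ rad3Δ and rif1Δ for each gene, in rows by role. Diamonds are the 6 cell separation genes, described without a test, from -1.92 to -0.55; circles are the 64 other septum genes, from -0.86 to 0.79, filled where limma's adjusted p over all genes is below 0.05.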

How the data were processed

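Rad52 ChIP was measured on 4 two-colour Agilent tiling arrays (probes of 60 nt, a median of 265 bp apart). Per the labels, the ChIP sample carried Cy3 and the input Cy5 on every array, though the extract text describes RNA. Per the submitters' processing notes, the authors read the arrays in Agilent Feature Extraction, version 10.7.3.1. The intensity columns taken from the deposited scanner tables are the processed signals, background-subtracted and dye-normalized per the file headers. The deposited log10 ratio, of Cy5 over Cy3, and the authors' value table, a linear ratio of ChIP over input without centring (column medians 0.985, 1.01, 0.968 and 1.01), served to check the direction.

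From these, log2 of Cy3 over Cy5 was computed per probe and centred per array on the median of chromosomes I to III. Left out were 2513 control spots, 66 mitochondrial and 93 outlier probes. The array header names a Feb2002 NCBI build, while genes come from ASM294v3. Within 50 kb of each gene, probe brightness followed reference GC content best at offsets of -10 to 0 bp (eng1, adg3) and of 6120 to 6140 bp (agn1, adg1, adg2, mid2), so genes on chromosome I beyond 3784000 were shifted by 6130 bp. Genes with at least 2 probes, 4862 without rif1 and rad3, were fitted with limma 3.58.1 (R 4.3.3), using the 4 arrays and 1 coefficient per strain, and all adjusted p-values are limma's, Benjamini-Hochberg over all genes, called below 0.05. Of probes, 96.0% were well above background on all arrays, and the number of arrays limits the precision. Pathway lists were matched by symbol, then synonym; exo84 is exo8 in the annotation.

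The 6 genes and all lists were chosen with earlier results of these data known. The genes named are these 6, genes overlapping their flanks, pathway genes called between strains, sep1, and the 5 genes nearest to eng1; gas1, gas2, gas5, fkh2, mbx1, bgs3 and myo2 were named after their values were seen. Alternatives changed the background correction, normalization, centring, scale, base content, dim probes, probe summary, gene margins, shift, replicate block, slide and each array left out. One further pathway gene and an upstream sequence search are not reported here.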

Additional observations from a re-analysis of the deposited data

How the results depend on the processing

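The difference between strains at each of the 6 genes was negative under all 16 alternatives: -2.83 to -1.47 at eng1, -2.70 to -1.54 at agn1, -1.52 to -0.68 at adg1, -1.55 to -0.83 at adg2, -1.36 to -0.81 at adg3 and -0.84 to -0.32 at mid2. In the 15 alternatives with a fit, mid2 was called lower in 9 and the other 5 genes in all 15. Genes called depleted in rif1Δ rad3Δ were 2 of the 6 instead of 1 with probes well above background only, with gene body plus 2 kb, and with positions on the shifted arm one probe spacing to the left or to the right. The other counts of these 6 genes stayed within 1.5 times. The 6 genes were chosen with the strain contrast known, so nothing is read from their calls. Of all 4862 genes, 208 were called lower with arrays scaled to one spread and 1053 with the replicate block.

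Counts over all genes moved more. The fit with gene body plus 2 kb held 5071 genes instead of 4862, so its counts over all genes are not from the same set. Enriched in rif1Δ, 258 genes became 510 with arrays scaled to one spread and 435 with gene body plus 2 kb, and 52 to 457 without single arrays. Depleted in rif1Δ, 91 became 141 with normexp, 145 with loess, 28 with mode centring, 363 with one spread and 280 with gene body plus 2 kb, and 0 to 256 without single arrays. In rif1Δ rad3Δ, 1208 enriched genes became 792 with one spread. Higher in rif1Δ rad3Δ, 524 became 256 with normexp, 167 with one spread and 1040 with gene body plus 2 kb, and 144 to 529 without single arrays. Lower there, 597 became 208 with one spread and 385 with the A+T trend removed, and 134 to 530 without single arrays. Pathway genes called higher, 4, became 1 with one spread and 11 with gene body plus 2 kb, and 1 to 4 without single arrays. Those called lower, 7, became 4 each with normexp, mode centring and the A+T trend removed, 2 with one spread, 3 with medians over probes and 17 with gene body plus 2 kb, and 0 to 7 without single arrays. The cause was not tested, except that leaving out an array leaves fewer arrays to fit. The strain differences of exg1 and cfh4 no longer passed only without replicate 1 of rif1Δ, at -0.58 and -0.68, and that of spn4 without either rif1Δ array, at 0.61 and 0.72. The calls of gef3 and rho4 were lost in 3 of 15 fits each.

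Replicate numbers are shared between the strains, but only 2 pairs exist and only the replicate 1 arrays share a slide. Deviations of same-numbered arrays correlated at 0.329 across genes. With the replicate block, genes enriched in rif1Δ were 565, depleted 401, higher in rif1Δ rad3Δ 884 and lower 1053, pathway genes higher 7 and lower 14, and 6 of the 6 separation genes were called enriched in rif1Δ and 6 lower between strains. The slide as a fixed block leaves the within-slide difference without a test.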
